A study of Mus musculus with 15 samples.

Results

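Molecular chaperones of the cytosol and of the mitochondria were examined in 21EM15 cells, an immortalized mouse lens epithelial cell line, grown as flat cultures or as organoids. A list of 38 genes was matched by symbol to the 2 deposited expression tables, and 37 of them were present in both, out of 11677 genes in the table of the cultures and 11299 genes in that of the organoid regions. *Hspa1a* was not listed in either table. The 37 genes fell into 4 groups, with 16 genes of the heat-inducible and HSP70 system, 9 of the HSP90 system, the 8 subunits of TRiC and 4 mitochondrial chaperones.

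The study asked how growth in 3D alters this line and how the regions of the organoids differ. RNA was measured by QuantSeq 3′ end sequencing, in which each read marks the end of a transcript, so long and short transcripts are counted alike. The 4 2D samples were dishes of subconfluent cells and the 4 3D samples were pools of whole organoids grown on a non-adhesive coating. The most internal (Internal, n = 4) and most external (External, n = 3) regions were cut by laser capture microdissection from cryosections of pooled organoids. All samples are labelled WT, and no treatment is given for them. They come from a single cell line, so the p-values measure the spread between cultures and pools and not between animals, and the labels do not say whether an Internal and an External sample came from the same pool. RNA was extracted with one kit from the cultures and with another from the microdissected regions, and the 2 tables were normalized separately, so levels were compared within a table. The layer between the 2 regions was not sampled.

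The samples held between 7305053 and 9362587 reads in 2D, 7727642 and 8364276 in 3D, 4256391 and 11702504 in Internal and 4044230 and 6086089 in External. No chaperone gene lay near the counting limit of 3 reads, the lowest being *Hspb1* with 7 reads in a 2D sample. Of the lens epithelial markers, *Pax6*, *Six3*, *Cryab* and *Bmi1* were measured and *Foxe3* and *Cdh1* were not listed. *Cryab* is also expressed in lens fibre cells and does not mark the epithelium alone. Of 8 lens fibre markers, none was listed in the cultures and 1, *Bfsp1*, was listed in the regions, where the summed level of the list was between 1.65 and 4.35 read counts scaled to library size (CPM) in Internal and between 0 and 2.61 CPM in External. Of the macrophage markers, *Ptprc*, *Adgre1* and *Lyz2* were listed in neither table, *Cd68* was listed in both and *Csf1r* in the regions alone.

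Chaperones bind unfolded proteins and help them to reach their native state. In the cytosol, HSP70 proteins act with J proteins, which bring substrates and trigger ATP hydrolysis, and with nucleotide exchange factors, which let the substrate go. HSP90 receives kinases, hormone receptors and other clients through co-chaperones, and TRiC is a ring-shaped chamber in which newly made actin, tubulin and other proteins fold. In mitochondria, HSPA9 draws imported chains through the membrane and the chamber formed by HSPD1 and its lid HSPE1 folds them. Heat shock factors induce many of these genes through heat shock elements, and in the lens, whose fibre cells keep their proteins for life, chaperones and the small heat shock protein αB-crystallin counter protein aggregation.

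The sequence of these elements was looked for around the starts of the genes, because members of the different groups share them. An element was searched as 3 alternating units, that is the 8-letter core GAANNTTC continued after 2 free bases by GAA, or TTCNNGAA continued after 2 free bases by TTC, in RefSeq windows of GRCm38.p6 reaching from 250 bases before to 50 bases after a transcript start. The search covers both strands and overlapping matches were kept. Windows were found for 31 of the 38 genes, and *Hspa8*, *Hsf1*, *Hsp90aa1*, *Hsp90ab1*, *St13*, *Cct4* and *Hspa9* were not searched. The element was present in windows of 5 of them, *Hspd1*, *Hspe1*, *Hsph1*, *Chordc1* and *Dnajb6*, and in 0.603% of all 32851 windows. The 2-unit core, which the 3-unit element contains, was present for 17 genes, those 5 included, and in 15.1% of all windows. A gene was counted if any of its windows held a match, while the percentages are per window. *Hspd1* and *Hspe1* lie head to head on chromosome 1, with 215 bases between the starts used here, and share one stretch. The elements are shown here 5′ to 3′ on the strand of the gene, and for the shared stretch on that of *Hspe1*, with all bases of overlapping units in capitals. Relative to the RefSeq starts whose windows hold them, that of *Chordc1* spans the start, that of *Hsph1* lies after it, and the others lie before it.
Hspe1 and Hspd1, chr1:55088053-55088082, plus strand: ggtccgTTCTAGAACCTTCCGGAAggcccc
Chordc1, chr9:18292260-18292288, plus strand: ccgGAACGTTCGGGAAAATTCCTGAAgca
Hsph1, chr5:149636282-149636306, minus strand: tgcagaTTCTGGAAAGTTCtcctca
Dnajb6, chr5:29735846-29735870, plus strand: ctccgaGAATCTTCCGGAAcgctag
A match to these letters is a description of the sequence and not evidence that a factor was bound in these cells. The search allowed no mismatch, so a window without a match is not shown to lack an element.

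In 3D organoids, part of the chaperone genes was reduced compared to 2D cultures, and none passed the test for an elevated level. Of the 37 genes, 12 (32.4%) fell at an adjusted p under 0.05 (limma with Benjamini-Hochberg adjustment over all genes), against 9.25% of all 11677 genes tested, and 0 rose, against 9.74% of all genes. The reduced genes were 5 of the 8 TRiC subunits, the mitochondrial pair *Hspd1* and *Hspe1*, the HSP90 gene *Hsp90aa1* with the co-chaperones *Fkbp4* and *Ptges3*, and the HSP110-type genes *Hsph1* and *Hspa4*. The log2 fold change lay below 0 in 32 of the 37 genes, against 52.2% of all genes, and its median was -0.35, against -0.03 over all genes. The decreases were modest. Under a stricter rule, an adjusted p under 0.01 with a change of more than 1 on the log2 scale, 0 of the 37 genes were lower and 0 higher, against 1.51% and 2.92% of all genes. In a total RNA sample, fewer cells expressing a gene and less of its RNA per cell cannot be told apart.

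By group, lower calls are to be read against the 9.25% of all genes. They were found in 2 of 16 genes of the heat-inducible and HSP70 system (12.5%, median log2 fold change -0.20). The HSP90 system had 3 of 9 (33.3%, -0.37), TRiC 5 of 8 (62.5%, -0.49) and the mitochondrial genes 2 of 4 (50%, -0.36). The differences between these medians were not tested. The samples of both conditions did not overlap, with all 3D samples below all 2D samples, in 14 of the 37 genes, against 12.0% of all genes. Without single samples the count of 12 calls changed, to 4 without 3D replicate 3 and to 6 without 2D replicate 3, 3D replicate 1 or 3D replicate 4. It was also 6 without a variance trend, when *Hspa4*, *Hsp90aa1*, *Ptges3*, *Cct2*, *Cct3* and *Cct5* were not called. *Hspd1*, *Hspe1*, *Cct6a* and *Cct8* were called without any 1 of the 8 samples.

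Other lists moved with this comparison, and their part in the result was not tested. All 10 of 10 proliferation genes were reduced in 3D, with a summed level between 779 and 906 CPM in 3D and between 1564 and 2620 CPM in 2D. Of the 7 measured mitochondrially encoded genes, 4 were elevated. Of 8 immediate-early genes, which respond within minutes to handling, *Egr1* and *Atf3* were elevated, and the summed level of the list was between 260 and 450 CPM in 3D and between 171 and 416 CPM in 2D. Among 5 measured fibroblast markers, *Col3a1* and *Dcn* were elevated in 3D and 0 were called lower. A further marker changed by -1.47 without overlap of the samples but was not called. The summed level of this list was between 448 and 700 CPM in 3D and between 70.1 and 227 CPM in 2D. Of the 4 measured lens epithelial markers, *Pax6* (0.69, adjusted p = 0.0246) and *Six3* (0.48, adjusted p = 0.0267) were elevated, and the summed level of the 3 markers other than *Cryab* was between 755 and 967 CPM in 3D and between 587 and 647 CPM in 2D, without overlap.

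Within the groups, some samples were at the edge for many chaperone genes at once. 2D replicate 2 was the highest 2D sample for 17 of the 37 genes and 2D replicate 1 the lowest for 16. 3D replicate 4 was the highest 3D sample for 19 genes and 3D replicate 3 the lowest for 14. External replicate 3 was the highest External sample for 19 genes and External replicate 1 the lowest for 17, whereas the Internal samples shared these places more evenly, with 7 to 11 highest and 5 to 11 lowest genes each.

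**Figure D1:**
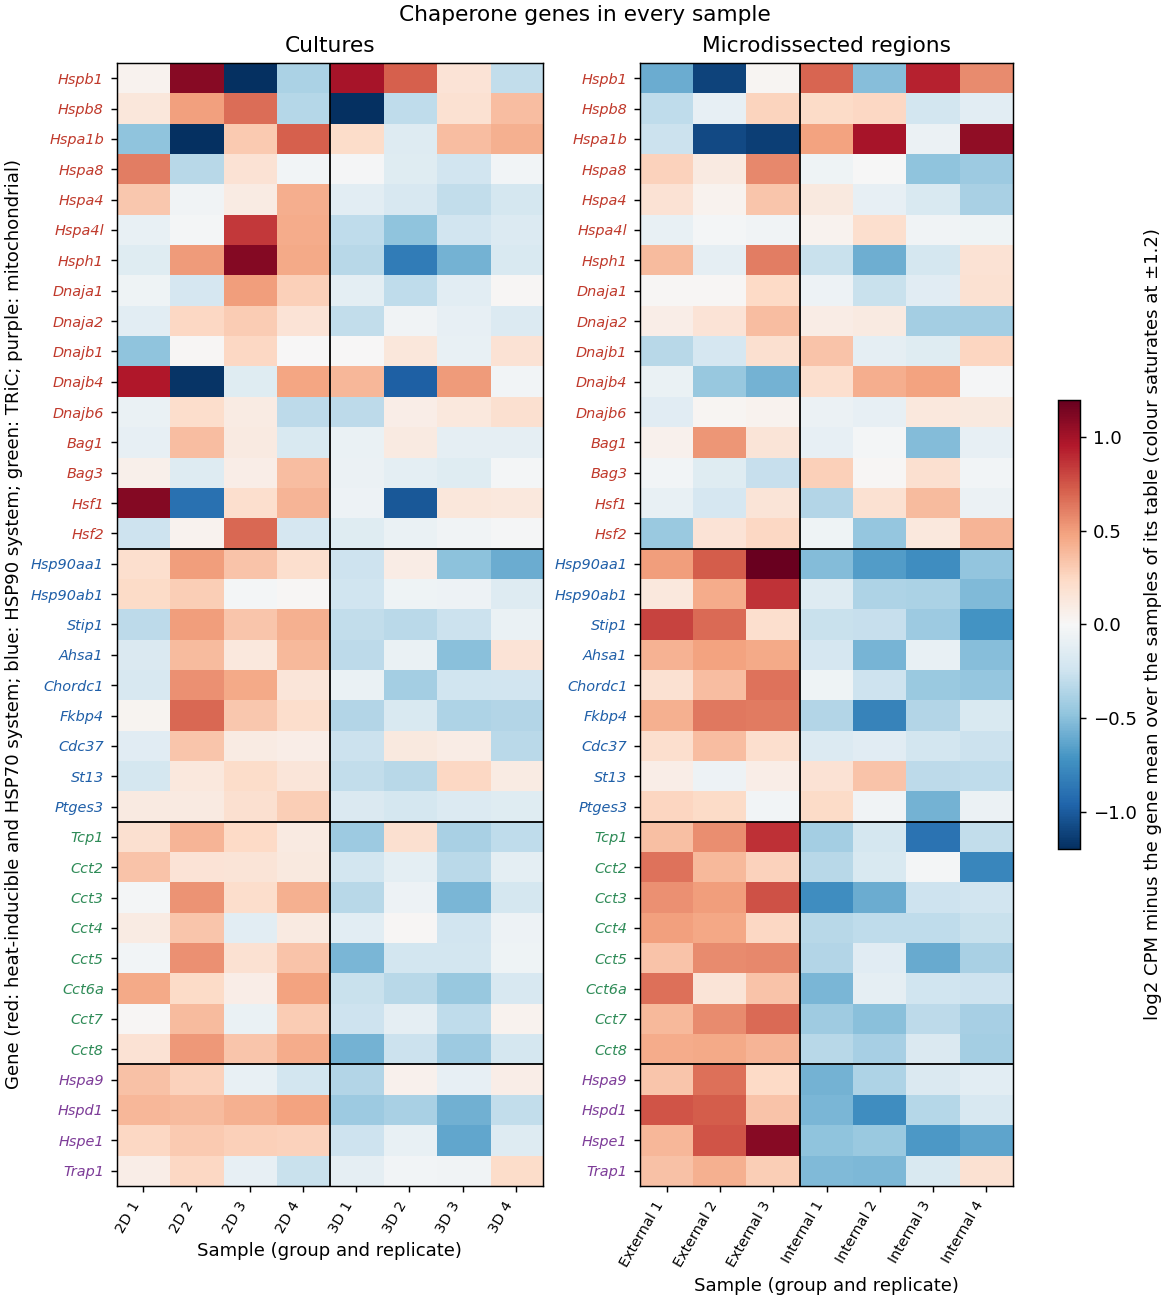
Level of each of the 37 chaperone genes (rows) in each sample (columns), as log2 CPM minus the mean of the gene over the samples of its table, with red above and blue below that mean. TRiC and the mitochondrial pair *Hspd1* and *Hspe1* are mostly blue in the 3D and Internal samples, with *Tcp1* in 3D replicate 2 as an exception, while *Hspa1b* is red in 3 of the 4 Internal samples.

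*Hspd1* (ENSMUSG00000025980, chromosome 1, 55077835 to 55088243, minus strand) had the lowest adjusted p of the list in this comparison. Its level was 8.78, 8.76, 8.81 and 8.87 log2 CPM in 2D replicates 1 to 4 and 7.95, 7.99, 7.81 and 8.09 log2 CPM in 3D replicates 1 to 4. The 2D samples were close to each other and every 3D sample lay well below them, which amounts to a change of -0.85 on the log2 scale (SE 0.11, adjusted p = 0.00123) or a level 44.4% lower. *Hspe1*, the gene of the lid, had 9.05, 9.12, 9.09 and 9.08 log2 CPM in 2D and 8.56, 8.72, 8.18 and 8.65 log2 CPM in 3D. Its 3D samples were all below 2D, with replicate 3 lowest, and the change was -0.56 (SE 0.13, adjusted p = 0.0176). The other mitochondrial chaperones were not called. *Hspa9*, the mitochondrial HSP70 gene, had a change of -0.16 (95% confidence interval -0.52 to 0.21, adjusted p = 0.531), and *Trap1*, the mitochondrial HSP90 gene, a change of 0.02 (-0.30 to 0.34, adjusted p = 0.934). The samples of both conditions overlapped for both genes.

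Among the TRiC subunits, *Cct8* (theta) and *Cct6a* (zeta) changed most. *Cct8* had 9.39, 9.74, 9.55 and 9.66 log2 CPM in 2D and 8.65, 8.96, 8.78 and 9.01 log2 CPM in 3D, a change of -0.73 (SE 0.13, adjusted p = 0.00488). *Cct6a* had 8.65, 8.42, 8.27 and 8.67 log2 CPM in 2D and 7.92, 7.86, 7.74 and 8.0 log2 CPM in 3D, a change of -0.62 (SE 0.13, adjusted p = 0.00924). For both subunits the highest 3D sample stood below the lowest 2D sample. *Cct3* (gamma) had 9.07, 9.63, 9.30 and 9.52 log2 CPM in 2D and 8.76, 9.03, 8.54 and 8.88 log2 CPM in 3D, and its adjusted p was 0.0278. *Cct5* (epsilon) had 8.65, 9.23, 8.86 and 9.02 log2 CPM in 2D and 8.13, 8.46, 8.46 and 8.63 log2 CPM in 3D, and its adjusted p was 0.0423. For these subunits the highest 3D sample only just missed the lowest 2D sample. *Cct2* (beta) had 9.06, 8.88, 8.87 and 8.83 log2 CPM in 2D and 8.50, 8.60, 8.39 and 8.60 log2 CPM in 3D, and its adjusted p was 0.0344. The changes of *Cct3*, *Cct5* and *Cct2* were -0.58, -0.52 and -0.39. *Cct3* was not called without 2D replicates 3 or 4 or 3D replicates 1, 3 or 4 (adjusted p up to 0.0882), *Cct5* was called only without 2D replicate 1 (up to 0.114) and *Cct2* only without 2D replicates 2 or 4 (up to 0.103). The other subunits also had lower means in 3D but were not called. *Tcp1* (alpha) had a change of -0.47 (adjusted p = 0.0544), *Cct7* (eta) of -0.31 (adjusted p = 0.163) and *Cct4* (delta) of -0.20 (adjusted p = 0.286).

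In the HSP90 system, the inducible isoform fell and the constitutive one was not called. *Hsp90aa1* had 10.54, 10.84, 10.68 and 10.54 log2 CPM in 2D and 10.09, 10.43, 9.85 and 9.74 log2 CPM in 3D, a change of -0.62 (SE 0.17, adjusted p = 0.026). *Hsp90ab1*, the most abundant gene of the list, had a change of -0.25 (95% confidence interval -0.57 to 0.06, adjusted p = 0.24), although its samples did not overlap. *Fkbp4*, a co-chaperone that carries steroid receptors with HSP90, had 8.71, 9.36, 9.0 and 8.88 log2 CPM in 2D and 8.32, 8.49, 8.30 and 8.32 log2 CPM in 3D, a change of -0.63 (SE 0.15, adjusted p = 0.0153). Every 3D sample of *Hsp90aa1* and *Fkbp4* lay below every 2D sample. *Ptges3*, whose product p23 steadies the closed form of HSP90, had 7.70, 7.70, 7.79 and 7.89 log2 CPM in 2D and 7.42, 7.38, 7.43 and 7.45 log2 CPM in 3D, a small shift of -0.35 with tight groups (adjusted p = 0.04). *Fkbp4* was not called without 3D replicate 3 (adjusted p = 0.0505), *Hsp90aa1* not without 2D replicate 3 or 3D replicates 1, 3 or 4 (up to 0.0829), and *Ptges3* was called only without 2D replicates 1 or 2 (up to 0.102). The other co-chaperones had lower means in 3D without passing the test. *Stip1*, the adaptor that hands substrates from HSP70 to HSP90, had a change of -0.48 (adjusted p = 0.0858), *Chordc1* of -0.47 (0.0777), *Ahsa1*, which speeds the ATPase of HSP90, of -0.37 (0.178), the kinase adaptor *Cdc37* of -0.18 (0.42) and *St13* of -0.14 (0.591).

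In the heat-inducible and HSP70 system, 2 of 16 genes were called (12.5%), a share near the 9.25% of all genes. Both are genes of the HSP110 family, whose members act as nucleotide exchange factors of HSP70. *Hsph1* had 6.64, 7.29, 7.88 and 7.24 log2 CPM in 2D and 6.45, 5.94, 6.22 and 6.60 log2 CPM in 3D, a change of -0.96 (SE 0.24, adjusted p = 0.0214). *Hspa4* had 8.10, 7.73, 7.87 and 8.21 log2 CPM in 2D and 7.65, 7.58, 7.48 and 7.56 log2 CPM in 3D, a change of -0.41 (SE 0.13, adjusted p = 0.0489). The 2D samples of *Hsph1* were spread, with replicate 3 highest, and its 3D samples were all lower. *Hsph1* was not called without 3D replicates 2 or 3 (adjusted p = 0.056 and 0.063), and *Hspa4* was called only without 2D replicate 2 (up to 0.127). The third gene of this family, *Hspa4l*, had a change of -0.59 (adjusted p = 0.067). The remaining 13 genes were not called, including the inducible HSP70 gene *Hspa1b* (0.43, adjusted p = 0.484), its J protein *Dnajb1* (0.11, adjusted p = 0.669), the small heat shock protein genes *Hspb1* (0.79, adjusted p = 0.4) and *Hspb8* (-0.48, adjusted p = 0.34), and the transcription factors *Hsf1* (-0.41, adjusted p = 0.51) and *Hsf2* (-0.15, adjusted p = 0.651). *Hspb1*, *Hspa1b*, *Dnajb4* and *Hsf1* were low and variable among the 2D samples. *Hspb1* ranged from 0.08 to 3.5 log2 CPM there.

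**Figure D2:**
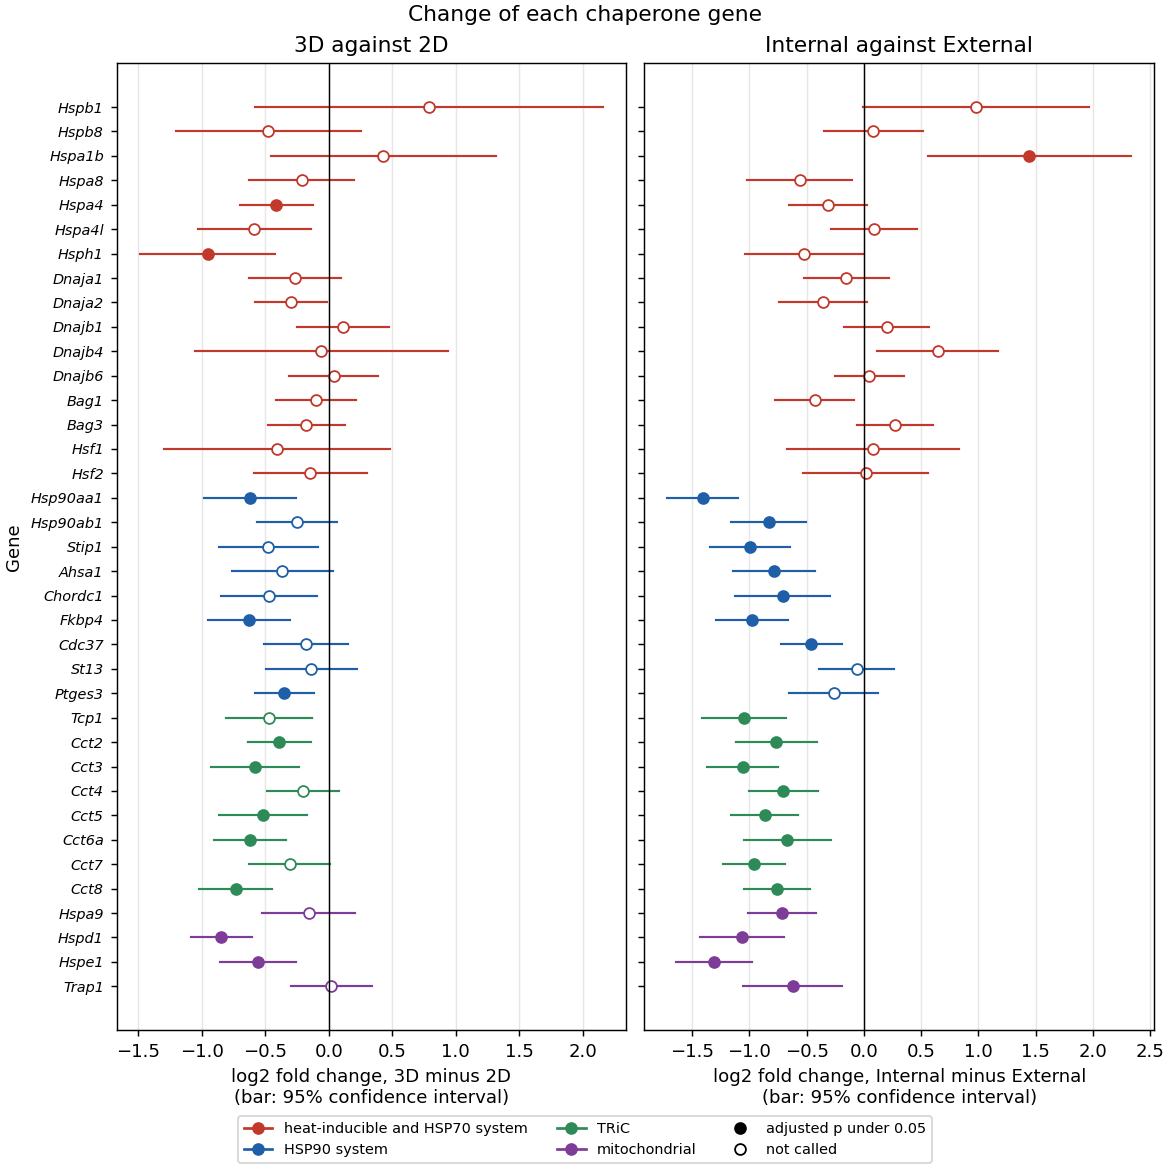
Log2 fold change of each of the 37 chaperone genes with its 95% confidence interval, 3D minus 2D on the left and Internal minus External on the right, with filled points for an adjusted p under 0.05. All 8 TRiC subunits and 4 mitochondrial genes are filled and below 0 on the right, and *Hspa1b* is the only filled point above 0.

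Within the organoids, most genes of TRiC, the HSP90 system and the mitochondrial group were lower in the internal than in the external region. Of the 37 genes, 19 (51.4%) fell at an adjusted p under 0.05, against 12.1% of all 11299 genes, and 1, *Hspa1b*, rose, against 9.58% of all genes. All 8 TRiC subunits, all 4 mitochondrial chaperones and 7 of the 9 HSP90 system genes were reduced, whereas none of the 16 genes of the heat-inducible and HSP70 system was. The medians of the log2 fold changes were -0.81 for TRiC, -0.89 for the mitochondrial genes, -0.79 for the HSP90 system and 0.06 for the heat-inducible and HSP70 system, and the median over all genes was 0.04. The stricter rule was passed by *Hsp90aa1*, *Hspe1*, *Hspd1*, *Cct3* and *Tcp1*, that is 5 of 37 genes against 4.35% of all genes in this direction, and by 0 genes in the other, against 3.27% of all genes. The log2 fold change lay below 0 in 27 of the 37 genes, against 47.1% of all genes. In 21 of the 37 genes every Internal sample lay below every External sample, against 15.4% of all genes. Leaving out single samples gave between 17 and 19 lower calls.

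The same region difference was accompanied by other lists, whose part in the result was not tested. Of the proliferation genes, 9 of 10 were reduced in Internal, and their summed level was between 68.9 and 125 CPM there and between 776 and 989 CPM in External. Of the 7 measured mitochondrially encoded genes, 6 were elevated in Internal and *ND6* was reduced. Of the 8 immediate-early genes, *Fos* and *Junb* were elevated, with a summed level of the list between 269 and 427 CPM in Internal and between 237 and 299 CPM in External. Of the 4 measured fibroblast markers, *Col3a1* was elevated and *Col1a1* reduced. Their summed level was between 402 and 494 CPM in Internal and between 219 and 586 CPM in External, where replicate 1 was highest. Of the 4 measured lens epithelial markers, *Pax6* (0.65, adjusted p = 0.00601) and *Cryab*, which lens fibre cells also express, were elevated, and the summed level of the 3 markers other than *Cryab* was between 596 and 782 CPM in Internal and between 460.1 and 585 CPM in External, without overlap. The macrophage list had 2 measured genes, *Cd68* and *Csf1r*. Their summed level was between 2.06 and 8.20 CPM in Internal and between 0.165 and 10.01 CPM in External.

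*Hsp90aa1* (ENSMUSG00000021270, chromosome 12, 110690605 to 110702728, minus strand) had the lowest adjusted p of the list between the regions. It had 9.82, 10.04 and 10.50 log2 CPM in External replicates 1 to 3 and 8.80, 8.65, 8.57 and 8.84 log2 CPM in Internal replicates 1 to 4, a change of -1.41 (SE 0.15, adjusted p = 3.3e-07) or a level 62.3% lower. *Hsp90ab1* had 11.78, 12.10 and 12.52 log2 CPM in External and 11.50, 11.29, 11.28 and 11.13 log2 CPM in Internal, a change of -0.83 (SE 0.16, adjusted p = 0.000383). For both isoforms External replicate 3 was highest and all Internal samples were below all External samples. *Stip1* had 8.24, 8.11 and 7.63 log2 CPM in External and 7.16, 7.15, 6.99 and 6.71 log2 CPM in Internal (change -1.0, adjusted p = 0.000121). *Fkbp4* had 8.41, 8.61 and 8.60 log2 CPM in External and 7.63, 7.18, 7.63 and 7.80 log2 CPM in Internal (change -0.98, adjusted p = 5.19e-05). These co-chaperones were thus clearly lower in Internal, with no overlap. *Ahsa1* had 6.90, 6.97 and 6.94 log2 CPM in External and 6.29, 5.93, 6.40 and 5.98 log2 CPM in Internal (change -0.79, adjusted p = 0.00193). *Chordc1*, a partner of HSP90 with an element in its promoter, had 6.01, 6.19 and 6.48 log2 CPM in External and 5.77, 5.58, 5.38 and 5.36 log2 CPM in Internal (change -0.71, adjusted p = 0.0127). *Cdc37* had 8.83, 9.0 and 8.83 log2 CPM in External and 8.46, 8.49, 8.41 and 8.37 log2 CPM in Internal (change -0.46, adjusted p = 0.0116). The groups did not overlap for any of the 3 genes, but *Chordc1* was not called without External replicate 3 (adjusted p = 0.0834) and *Cdc37* not without External replicate 2 (adjusted p = 0.0669) or with scaling by total reads (0.0514). Neither was called without a variance trend (0.0533 and 0.0858). *St13* and *Ptges3* had overlapping samples and changes of -0.06 (95% confidence interval -0.39 to 0.26, adjusted p = 0.816) and -0.26 (-0.65 to 0.12, adjusted p = 0.347).

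The TRiC subunits fell together, by between 0.67 and 1.06 on the log2 scale. *Cct3* had 8.77, 8.72 and 8.99 log2 CPM in External and 7.48, 7.63, 7.97 and 7.99 log2 CPM in Internal (change -1.06, SE 0.15, adjusted p = 1.56e-05). *Tcp1* had 7.58, 7.78 and 8.10 log2 CPM in External and 6.81, 7.01, 6.34 and 6.93 log2 CPM in Internal (change -1.05, SE 0.18, adjusted p = 0.000116). Internal replicate 1 was lowest for *Cct3* and Internal replicate 3 for *Tcp1*, and no Internal sample reached an External one. *Cct7*, the most abundant subunit, had 9.07, 9.25 and 9.36 log2 CPM in External and 8.25, 8.18, 8.36 and 8.28 log2 CPM in Internal (change -0.96, adjusted p = 9.09e-06). *Cct5* had 8.70, 8.92 and 8.93 log2 CPM in External and 8.0, 8.22, 7.75 and 7.97 log2 CPM in Internal (change -0.87, adjusted p = 8.1e-05). The Internal samples of *Cct7* lay close to each other and those of *Cct5* were more spread. *Cct8* had 8.24, 8.25 and 8.20 log2 CPM in External and 7.46, 7.40, 7.62 and 7.39 log2 CPM in Internal (change -0.76, adjusted p = 0.000255). *Cct2* had 8.08, 7.82 and 7.71 log2 CPM in External and 7.10, 7.25, 7.41 and 6.65 log2 CPM in Internal (change -0.76, adjusted p = 0.00222). The change was of equal size in both, and the groups were tighter for *Cct8*. *Cct4* had 7.79, 7.77 and 7.55 log2 CPM in External and 6.97, 7.0, 7.0 and 7.03 log2 CPM in Internal (change -0.70, adjusted p = 0.001). *Cct6a* had 7.0, 6.49 and 6.68 log2 CPM in External and 5.79, 6.23, 6.10 and 6.09 log2 CPM in Internal (change -0.67, adjusted p = 0.0101). For each of the 8 subunits all Internal samples were below all External samples, and *Cct6a* was not called without External replicate 1 (adjusted p = 0.0674). *Cct2* and *Cct6a* were not called without a variance trend (0.067 and 0.0653).

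**Figure D3:**
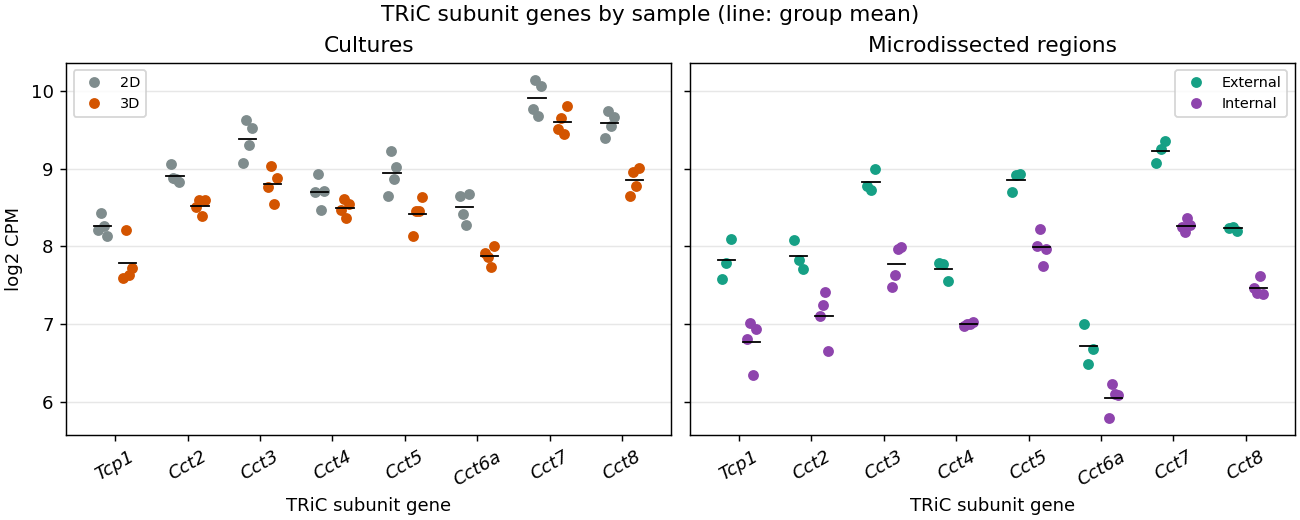
Log2 CPM of the 8 TRiC subunit genes in every sample, cultures on the left and microdissected regions on the right, with a line at the mean of each group. In the regions, no Internal point reaches an External point of the same subunit, and in the cultures the groups are apart for *Cct2*, *Cct3*, *Cct5*, *Cct6a* and *Cct8*.

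The order of the subunits by level was largely kept between the regions. *Cct7* had the highest mean, 602 ± 59.6 CPM (SD, n = 3) in External and 308 ± 16.7 CPM (SD, n = 4) in Internal, and *Cct6a* the lowest, 107 ± 19.5 CPM in External and 66.5 ± 8.26 CPM in Internal. *Cct5* and *Cct3* followed *Cct7*, with means in External of 462 ± 40.5 and 455 ± 45.4 CPM that lay within their spread. In the cultures, *Cct7* was again highest, at 970 ± 147 CPM in 2D and 781 ± 87.0 CPM in 3D (SD, n = 4 each), and *Tcp1* was lowest, at 307 ± 27.6 and 224 ± 48.3 CPM. *Cct6a*, at 236 ± 17.5 CPM in 3D, did not differ from *Tcp1* beyond their spread.

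Of the mitochondrial chaperones, *Hspe1* and *Hspd1* were again among the genes that changed most. *Hspe1* had 7.95, 8.31 and 8.64 log2 CPM in External and 7.07, 7.11, 6.86 and 6.92 log2 CPM in Internal, a change of -1.31 (SE 0.16, adjusted p = 2.56e-06) or a level 59.7% lower. *Hspd1* had 7.46, 7.43 and 7.05 log2 CPM in External and 6.16, 5.96, 6.36 and 6.51 log2 CPM in Internal, a change of -1.06 (SE 0.18, adjusted p = 0.000104). The Internal samples of this divergent pair all lay below the External ones. *Hspa9* had 9.23, 9.55 and 9.13 log2 CPM in External and 8.33, 8.52, 8.72 and 8.77 log2 CPM in Internal (change -0.72, adjusted p = 0.00071). *Trap1* had 6.15, 6.23 and 6.10 log2 CPM in External and 5.27, 5.26, 5.62 and 5.98 log2 CPM in Internal (change -0.62, adjusted p = 0.0353). *Hspa9* and *Trap1*, not called between 3D and 2D, were thus reduced in the internal region. *Trap1* is the weakest of these calls. Its Internal replicate 4 came close to the External samples, and it was not called without Internal replicates 1 or 2 or any 1 of the External replicates (adjusted p between 0.0685 and 0.12), without a variance trend (0.106), with scaling by total reads (0.0829) or with voom weights (0.0516). The mitochondrially encoded transcripts moved the other way in the same samples, with summed levels between 52802 and 67686 CPM in Internal and between 26582 and 38926 CPM in External.

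*Hspa1b* (ENSMUSG00000090877, chromosome 17, 34956436 to 34959238, minus strand), which encodes the stress-inducible HSP70, was elevated in the internal region. It had 2.98, 2.15 and 2.11 log2 CPM in External and 3.72, 4.23, 3.17 and 4.30 log2 CPM in Internal, a change of 1.44 (SE 0.43, adjusted p = 0.0172). All Internal samples lay above all External samples, but the gene was low, with between 15 and 235 reads per sample. It was not called without Internal replicates 2 or 4 or External replicates 2 or 3 (adjusted p between 0.0594 and 0.0676). The immediate-early genes *Fos* and *Junb* were elevated in the same samples, and their part in this result was not tested. It was also not called with voom weights (adjusted p = 0.0595). No other gene of the heat-inducible and HSP70 system passed the test. *Dnajb1* had a change of 0.20 (adjusted p = 0.468), the BAG-domain co-chaperone *Bag3* of 0.27 (0.247), *Hspb1* of 0.98 (0.152), *Dnajb4* of 0.64 (0.0755) and *Hsph1* of -0.52 (0.149). Of the factors that drive this response, *Hsf1* had a change of 0.08 (95% confidence interval -0.67 to 0.83) and *Hsf2* of 0.01 (-0.53 to 0.56). *Hspa8*, the constitutive HSP70 gene, had a change of -0.56 (adjusted p = 0.0762). The 250 bases upstream of the RefSeq start of *Hspa1b* (GRCm38.p6, minus strand) are shown because it was the only gene elevated. They held no exact match to the 3-unit element and a single 2-unit core, in capitals.
Hspa1b, chr17:34959239-34959488, minus strand: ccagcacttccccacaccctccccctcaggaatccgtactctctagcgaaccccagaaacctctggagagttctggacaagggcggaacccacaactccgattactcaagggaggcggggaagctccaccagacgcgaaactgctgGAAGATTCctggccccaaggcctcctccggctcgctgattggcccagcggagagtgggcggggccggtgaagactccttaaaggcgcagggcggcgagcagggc

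Summed over the genes, chaperones took a smaller share of the reads in 3D than in 2D and in Internal than in External. Without any scaling between samples, the 37 genes accounted for 1.15% to 1.26% of the reads counted in a 3D sample, against 1.53% to 1.75% in a 2D sample. The share was 0.733% to 0.803% in Internal, against 1.09% to 1.31% in External. On the scaled CPM of the tables, TRiC summed to between 2938 and 3502 CPM in 3D and between 4101 and 5016 CPM in 2D, and to between 1343 and 1437 CPM in Internal and between 2502 and 2716 CPM in External. The ranges of the groups compared did not overlap. The HSP90 system, which *Hsp90ab1* dominates, summed to between 5693 and 6504 CPM in 3D and between 7274 and 8715 CPM in 2D, and to between 3853 and 4684 CPM in Internal and between 6209 and 9044 CPM in External. The heat-inducible and HSP70 system was apart in the cultures, with 1298 to 1444 CPM in 3D and 1540 to 1922 CPM in 2D, and overlapped in the regions, with 1059 to 1193 CPM in Internal and 1106 to 1260 CPM in External.

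**Figure D4:**
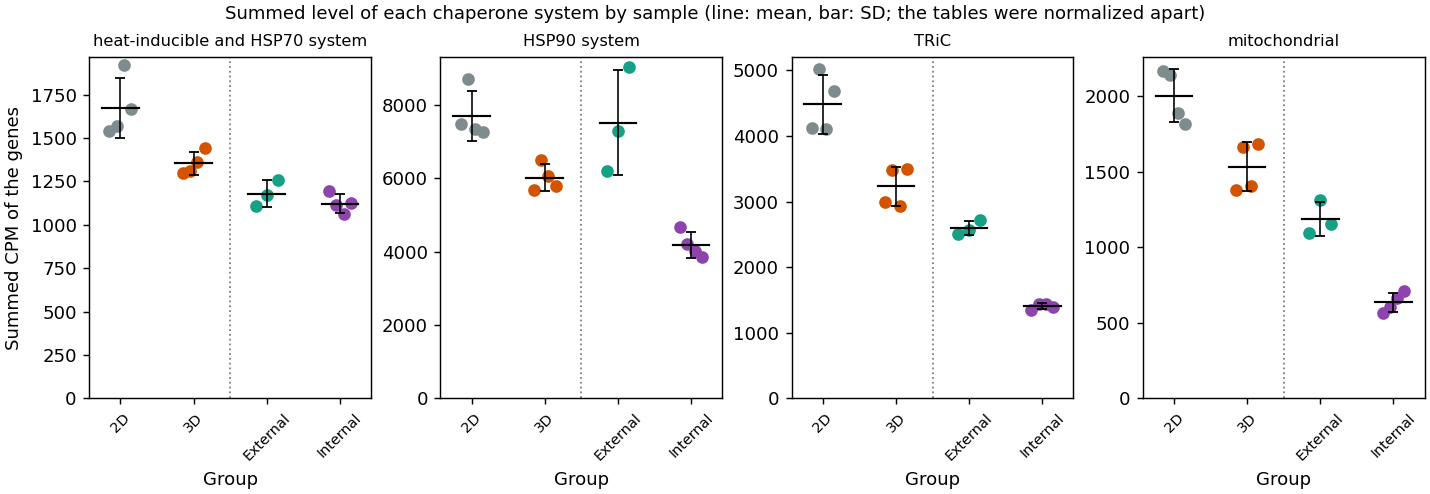
Summed CPM of the genes of each chaperone group in every sample, with the mean and SD of each condition, the dotted line parting the 2 tables that were normalized separately. The Internal points of TRiC, the HSP90 system and the mitochondrial genes are all below the External points, while those of the heat-inducible and HSP70 system mingle with them.

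Set side by side, 9 genes were reduced in both comparisons, *Hsp90aa1*, *Fkbp4*, *Cct2*, *Cct3*, *Cct5*, *Cct6a*, *Cct8*, *Hspd1* and *Hspe1*. They make up 75% of the 12 genes reduced in 3D and 47.4% of the 19 genes reduced in Internal. In all, 506 of the 11041 genes in both tables (4.58%) were reduced in both comparisons, against 9 of the 37 chaperone genes (24.3%). The comparisons share no sample, and the proliferation genes fell in both. *Hsph1*, *Hspa4* and *Ptges3* were called only between 3D and 2D, and their changes between the regions were -0.52, -0.31 and -0.26. Whether a change differed between the comparisons was not tested. Of the 37 genes, 14 were called in neither comparison, among them *Hspb8*, *Dnaja1*, *Dnaja2*, *Dnajb6*, *Bag1*, *Bag3*, *Hsf1*, *Hsf2* and *St13*.

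The balance within the chaperone pairs was examined as ratios of CPM, which were chosen after the values had been seen. The ratio of *Hsp90ab1* to *Hsp90aa1* was between 4.89 and 6.55 in Internal and between 3.88 and 4.15 in External, without overlap, and the two-sided exact permutation test gave p = 0.0571, the smallest that 4 against 3 samples allow (adjusted over the 4 ratio tests, 0.114). In the cultures the ratio was between 2.7 and 4.05 in 3D and between 2.30 and 3.02 in 2D, with overlap (exact permutation p = 0.0857, adjusted 0.114). The ratio of *Hspe1* to *Hspd1* was between 1.29 and 1.65 in 3D and between 1.16 and 1.28 in 2D, without overlap (exact permutation p = 0.0286, adjusted 0.114). It was between 1.33 and 2.23 in Internal and between 1.41 and 3.02 in External (exact permutation p = 0.571, adjusted 0.571). No ratio passed the adjustment.

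Part of these levels may depend on reads that map to more than one place, since the authors kept uniquely mapped reads and many chaperone genes have pseudogenes. Of the 50-nt stretches in the last 300 nt of the transcripts, 73.7% were shared with other genes or pseudogenes for *Hspa8*, 52.3% for *Dnaja1*, 43.8% for *Hspe1*, 39.2% for *Hspd1*, 37.6% for *Hsp90aa1* and 35.5% for *Ahsa1*. A read that lies wholly in such a stretch cannot be placed, while a longer one may be, and how many reads were lost was not measured. The levels of these genes are to that extent uncertain, among them that of *Hspa8*, with between 500 and 1263 reads per sample in the cultures. No stretch was shared for *Hspa1b*, *Hsp90ab1* and 6 of the TRiC subunits, *Cct3* had 2.91% and *Cct6a* was not searched.

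Among the other genes of the folding machinery, called genes are to be read against the shares over all genes, 9.74% higher and 9.25% lower in 3D and 9.58% higher and 12.1% lower in Internal. Of 16 further HSP90 co-chaperones, 5 fell and 0 rose in 3D (median -0.14), namely *Ppid*, *Nudc*, *Ruvbl1*, *Ruvbl2* and *Tomm70a*, that is 31.2% of them. In Internal 3 fell and 0 rose (median -0.42), namely *Ppid*, *Ruvbl1* and *Tomm70a*, that is 18.8%. *Tomm70a*, the receptor through which HSP90 and HSP70 deliver proteins to mitochondria, changed by -0.52 in 3D (adjusted p = 0.0222) and by -0.91 in Internal (adjusted p = 0.000326). Of 12 further J proteins, 1 (8.33%) fell and 0 rose in Internal, a share not above that over all genes. *Dnajc9*, a J protein that also binds histones, was this gene and was also reduced in 3D, with changes of -1.49 in Internal (adjusted p = 8.08e-05) and -0.87 in 3D (adjusted p = 0.00969). Of the prefoldin subunits and TRiC cofactors, which hand actin and tubulin to TRiC, 1 of 11 rose and 0 fell in 3D (*Pfdn5*, 0.84, adjusted p = 0.0101) and 1 of 12 fell and 0 rose in Internal (*Pfdn1*, -0.91, adjusted p = 0.000154), again shares near or below those over all genes.

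Of the 7 measured genes of the small heat shock protein and HSP70 family list, 1 was elevated and 1 was reduced in 3D, and 2 were elevated and 1 was reduced in Internal. Of the factors that regulate the response, 1 of 4 was elevated in 3D and 2 of 5 were elevated in Internal, and none was reduced in either comparison. *Hspb6* changed by -0.62 in 3D (adjusted p = 0.0223) and by -0.82 in Internal (adjusted p = 0.00194), whereas *Hspb2* was elevated in 3D (0.71, adjusted p = 0.0126). *Cryab*, which encodes αB-crystallin, had a change of 0.68 in 3D (adjusted p = 0.0628) and was elevated in Internal (0.43, adjusted p = 0.041), as was *Hspa13* of the HSP70 family (0.75, adjusted p = 0.0243). *Hsf4*, the heat shock factor of lens fibre cells, was listed in the regions alone, with between 0 and 142 reads, and was elevated in Internal (adjusted p = 0.00394). *Ier5*, an activator of HSF1, was elevated in Internal (0.63, adjusted p = 0.0135), and *Hsbp1*, which binds HSF1, was elevated in 3D (0.59, adjusted p = 0.0168). Of 6 further nucleotide exchange factors and BAG proteins, 1 rose in 3D (*Bag5*, 0.46, adjusted p = 0.0384) and 0 were called in Internal. Of 13 other mitochondrial chaperones and proteases, 0 were called in 3D and 1 fell in Internal, the protease gene *Lonp1* (-0.84, adjusted p = 0.00114).

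The chaperones of the endoplasmic reticulum were taken as a comparison, since they serve secreted and membrane proteins and answer to another stress pathway. Of 16 genes, 1 (6.25%) rose and 0 fell in 3D, with a median of -0.16. In Internal, 0 rose and 2 (12.5%) fell, with a median of -0.16. These shares were near or below those over all genes, 9.74% higher in 3D and 12.1% lower in Internal. The reduced genes were *Pdia6* (-0.89, adjusted p = 7.75e-05) and *Hspa5* (-0.43, adjusted p = 0.0482). The medians of the 37 cytosolic and mitochondrial genes were -0.35 and -0.56, and the difference from the endoplasmic reticulum genes was not tested.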

How the data were processed

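The authors trimmed the reads, kept sense and uniquely mapped reads, aligned them with STAR 2.7.8a to GRCm38.p6, counted them with featureCounts 1.6.0, removed genes with low CPM and tested genes with edgeR. They deposited log2 CPM values per sample in 2 tables, which also hold their own fold changes and p-values (not used here). Whole reads were recovered from the spacing of the values (100% of values within 0.05 of a whole read), and 3 reads corresponded to between 0.248 and 0.802 CPM. The deposited values include a prior of about 2 reads, which understates the changes of low genes. Reads copied by PCR cannot be told apart.

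Differences were tested with limma 3.58.1 in R 4.3.3, with a variance trend, two-sided, without covariates, and with Benjamini-Hochberg adjustment within each table. The fit was tested on counts simulated with a dispersion of 0.03. Of genes changed by 1 on the log2 scale, it recovered 92% for the cultures and 86% for the regions. Of genes changed by 0.5, it recovered 14% and 19%. A gene that was not called is therefore not shown to be unchanged. Python 3.11.15 and scipy 1.17.1 gave the other values. Every listed gene is named, and a called gene is given in every sample of the comparison in which it was called. The chaperone genes and the other lists were chosen with earlier results of these data known. Alternatives were another scaling, prior, filter, variance model, the replicate number as a block, and each sample left out. Promoter windows are those of RefSeq, and shared transcript ends were searched in GENCODE. A further external sample that the study set aside was not analysed here. A result of the further J proteins in 3D is not reported here.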

Additional observations from a re-analysis of the deposited data

Results flagged for a closer look

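In 3 of the 111 groups of 4 samples tested (37 genes in 2D, 3D and Internal), 1 sample stood apart from the others by Dixon's criterion, which chance gives in about 1 in 20 groups. *Bag1* was at 7.12 log2 CPM in 3D replicate 2 and between 6.90 and 6.93 log2 CPM in the other 3D samples. *Fkbp4* was at 8.49 log2 CPM in the same 3D replicate 2 and between 8.30 and 8.32 log2 CPM in the others. *Bag1* was at 6.74 log2 CPM in Internal replicate 3 and between 7.17 and 7.24 log2 CPM in the others. External had 3 samples and was not tested.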

How the results depend on the processing

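No called chaperone gene changed direction under any of the alternatives. Between 3D and 2D, the 12 lower calls became 14 with the replicate block (*Tcp1*, *Hspa4l* and *Stip1* gained at adjusted p = 0.0251, 0.0277 and 0.0492, *Ptges3* lost at 0.051), 6 without a variance trend, 9 with median-of-ratios scaling, 13 with scaling by total reads, 11 with voom and 0 under the stricter rule, and leaving out each sample gave between 4 and 14. The count of 0 higher calls did not change. *Cct6a*, *Cct8*, *Hspd1* and *Hspe1*, 4 of the 12 genes, were called in all 16 alternatives at the threshold of 0.05. Between the regions, the 19 lower calls became 17 with the replicate block (*Cdc37* and *Chordc1* lost at 0.0694 and 0.0739), 17 with scaling by total reads, 18 with voom, 14 without a variance trend and 5 under the stricter rule, and leaving out each sample gave between 17 and 19. The single higher call, *Hspa1b*, became 0 with the replicate block (adjusted p = 0.0711), with voom (0.0595) and under the stricter rule, 2 with scaling by total reads, and between 0 and 1 when each sample was left out. Of the 20 genes called, 14 were called in all 15 alternatives. The causes were not tested.

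Neither the labels nor the methods say whether the replicate numbers pair the samples. The numbers were not taken to do so because not every pair deviated together, which does not show that the samples are unpaired. Deviations of same-numbered samples correlated at 0.227, 0.503, 0.066 and 0.005 in the cultures and at -0.044, -0.065 and -0.063 in the regions, where Internal replicate 4 has no partner and drops out of the block. Scaling by total reads moved the median change of all genes between the regions from 0.04 to 0.15. In genes with few reads, such as *Hspb1* and *Hspa1b*, depth limits the precision.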
